A study of Homo sapiens with 2 samples.

Results

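Nucleolin (NCL), nucleophosmin (NPM1), fibrillarin (FBL), NOP56, NOP58 and dyskerin (DKC1) are abundant proteins of the nucleolus, the nuclear compartment in which ribosomes are made. Their 6 genes were followed through the peak lists of a CLIP-seq study of Musashi-2 (MSI2), an RNA-binding protein. The genes were chosen by gene ID, and every peak listed under those IDs was taken, which gave 46 of 25920 peaks in replicate 1 and 47 of 25243 peaks in replicate 2, under 6 of the 8801 gene IDs seen in either list. The study comprised 2 libraries of 1 group. Both were made from NB4 cells, an established human acute promyelocytic leukaemia line, with an antibody to MSI2, and the labels name no treatment or genetic change. Equal numbers of cells were crosslinked with ultraviolet light at a dose of 400 mJ per square centimetre. Libraries from a control antibody, from input RNA or from MSI2-depleted cells were not analysed here, so the comparisons are between the replicates and between these genes and the whole lists. The labels do not say whether the replicates came from separate cultures, and with 1 group no test between conditions could be made. The lists name genes by Ensembl ID alone, so the identity of NB4 cells was not checked against marker genes.

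In CLIP-seq, light links a protein to the RNA it touches, the protein is recovered with an antibody, and the RNA fragments that come with it are sequenced. A peak is a stretch of RNA where such fragments pile up. The last part of a peak's name is a whole number of at least 3, called its tally here. It behaves like a number of reads, although no header or label explains it. MSI2 is known to bind short motifs with a UAG core, often near the 3′ end of messenger RNAs, and to affect their translation and stability. Of the 6 proteins, FBL, NOP56, NOP58 and DKC1 are parts of small nucleolar RNA particles, while the roles of NCL and NPM1 are given below. Small nucleolar RNAs (snoRNAs) guide the chemical modification of ribosomal RNA, those of the box C/D class for ribose methylation and those of the box H/ACA class for pseudouridine, and many of them are cut out of the introns of genes like these.

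Of the 6 genes, 5 carried peaks at the same place in both libraries, and FBL did not. Peaks of the 2 replicates that lay on the same strand and had at least 1 nt in common were called shared. In replicate 1, 28 of the 46 peaks of the 6 genes were shared, or 60.9% (95% Wilson interval 46.5% to 73.6%), against 35.7% of all peaks. In replicate 2, 28 of the 47 peaks were shared, or 59.6% (45.3% to 72.4%), against 37.3% of all peaks. With both lists limited to their strongest 10% by p the direction turned in replicate 2, where 41.7% of 12 peaks of the 6 genes were shared, against 57.1% of all such peaks, but not in replicate 1, with 71.4% of 7 peaks against 55.1%. Every shared peak had a partner listed under its own gene ID. Shared peaks held 259 of the 353 tally counts of the 6 genes in replicate 1 (73.4%) and 223 of 309 in replicate 2 (72.2%), against 54.3% and 54.1% over all peaks. The intervals cover counting error only, since peaks of one gene are not independent and NCL alone gave 12 of the shared peaks in each replicate. To have a shared peak was common among all genes. A shared peak was present in 55.2% of all gene IDs of replicate 1 and 56.7% of those of replicate 2. Among IDs with 5 or more peaks it was present in 90.9% and 89%.

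Pooled, the tallies of the 6 genes' peaks were on the high side of the lists. Their median tally was 6 in replicate 1 and 5 in replicate 2, against 4 over all peaks of each list. A tally of 10 or more was reached by 10 of the 46 peaks in replicate 1 (21.7%, against 13.2% of all peaks) and 8 of the 47 in replicate 2 (17.0%, against 9.53%). The lowest tally, 3, made up 6 and 8 of them, against 35.7% and 45.3% of all peaks. NCL gave 6 of the 10 peaks with a tally of 10 or more in replicate 1 and 5 of the 8 in replicate 2. NOP58 and FBL gave none, so the high share of strong peaks is not a trait of all 6 genes. By gene, the median tally ran from 3 in FBL to 8 in NCL in replicate 1, and from 3 to 6.5 in the same genes in replicate 2. Because strong peaks are shared more often, the shares were also set side by side at like tallies. With a tally of 10 or more, 9 of 10 peaks of the 6 genes were shared in replicate 1 (90.0%, interval 59.6% to 98.2%), close to the 87.1% of all such peaks, and 8 of 8 in replicate 2, where all such peaks gave 89.4%. With a tally of 6 to 9 the counts were 11 of 17 in replicate 1, against 54.9% of all such peaks, and 8 of 10 in replicate 2, against 64.9%. With a tally of 4 to 5 they were 8 of 13 (61.5%, interval 35.5% to 82.3%) in replicate 1, against 28.6%, and 10 of 21 (47.6%, 28.3% to 67.6%) in replicate 2, against 38.6%. With a tally of 3, 0 of 6 peaks were shared in replicate 1, against 11.9%, and 2 of 8 in replicate 2, against 15.5%. At like tallies, 7 of the 8 intervals of the 6 genes therefore included the share of all peaks, and the exception was the tally of 4 to 5 in replicate 1. The share itself was higher in the 6 genes in every class but the tally of 3 in replicate 1. The intervals are wide and treat peaks as independent, so they do not show that the shares are alike.

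**Figure D1:**
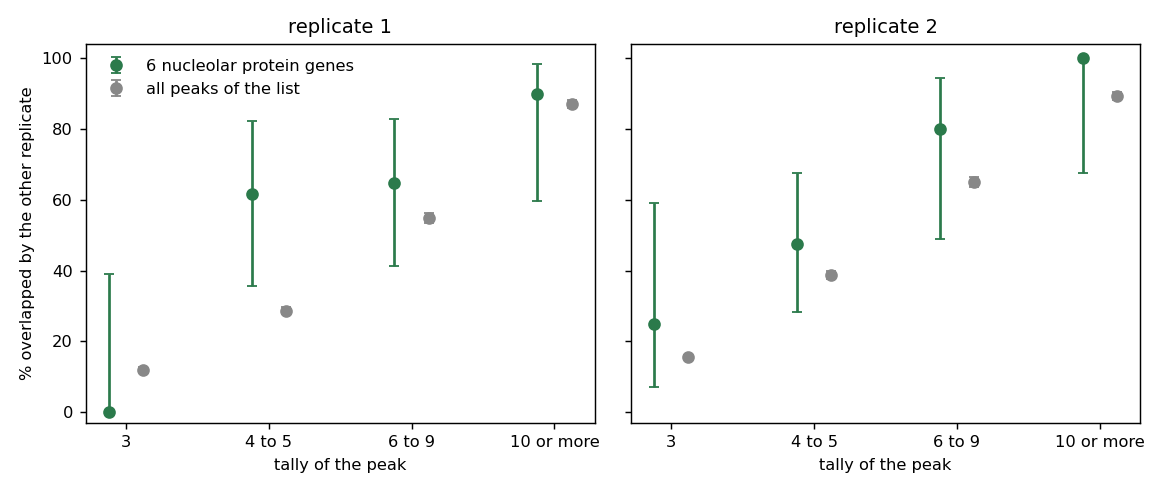
Share of peaks overlapped by a peak of the other replicate (vertical axis, percent) by the tally of the peak (horizontal axis), for the 6 nucleolar protein genes (left point of each pair) and all peaks of the list (right point). Bars are 95% Wilson intervals. In both libraries the share climbs with the tally in the 6 genes as in the whole list, and the wide bars of the 6 genes cover the grey points except at a tally of 4 to 5 in replicate 1.

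The genes differed widely in how much of the lists they took up. NCL, listed as ENSG00000115053.11 on the minus strand of chromosome 2, had 18 peaks with a summed tally of 166 in replicate 1 and 16 peaks with 122 in replicate 2. NPM1 (ENSG00000181163.9, plus strand of chromosome 5) had 8 peaks with 60 in replicate 1 and 7 peaks with 61 in replicate 2. DKC1 (ENSG00000130826.11, plus strand of chromosome X) had 7 peaks in each replicate, with 55 in replicate 1 and 39 in replicate 2. NCL was above the other genes in both libraries, by peaks and by summed tally. NOP56 (ENSG00000101361.10, plus strand of chromosome 20) had 6 peaks with 39 in replicate 1 and 8 peaks with 46 in replicate 2. NOP58 (ENSG00000055044.6, plus strand of chromosome 2) had 6 peaks with 30 and 7 peaks with 35. FBL (ENSG00000105202.3, minus strand of chromosome 19) had 1 peak with a tally of 3 in replicate 1 and 2 peaks with a tally of 3 each in replicate 2, which is the floor of the lists. The order from NCL to FBL describes tallies of called peaks. Neither the transcripts' abundance nor their length was measured here, so the order does not compare binding per RNA molecule.

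Scaled to the list totals of 155598 and 133644, the 6 genes held 226.9 tally counts per 100000 in replicate 1 and 231.2 in replicate 2. The log2 ratio of replicate 1 over replicate 2 was -0.03 (95% exact counting interval -0.25 to 0.20). For NCL the scaled tallies were 106.7 and 91.3, a log2 ratio of 0.22 (-0.12 to 0.57). NPM1 had 38.6 and 45.6, a log2 ratio of -0.24 (-0.78 to 0.29). The interval of each of the 6 genes included 0, so no gene's summed tally differed between the libraries beyond counting error. The intervals treat the tally as a count of independent reads, and several are wide. They do not show that the libraries agree. NCL was the highest in both libraries, and its lower value was 2 times the higher value of NPM1. DKC1 had 35.3 in replicate 1 and 29.2 in replicate 2, NOP56 had 25.1 and 34.4, and NOP58 had 19.3 and 26.2. The range of NOP56 over the libraries overlapped those of DKC1 and NOP58, so these neighbours in the order do not differ beyond their spread, and FBL lay below them at 1.93 and 4.49. Total reads per library are not given in the files, so the list totals stand for what was called and not for depth.

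**Figure D2:**
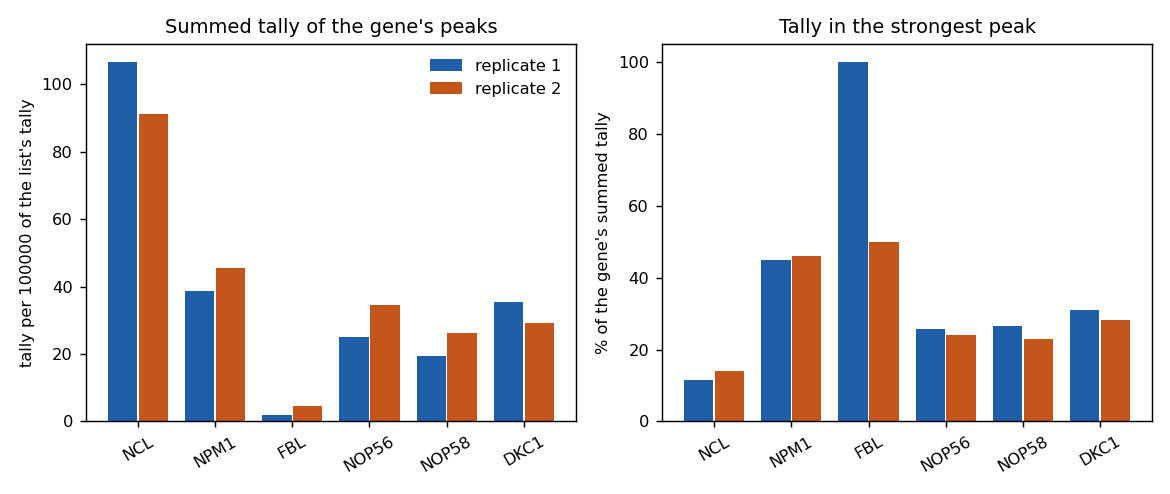
Left, summed tally of each gene's peaks per 100000 of the list's tally. Right, percent of the gene's summed tally that lay in its strongest peak; bars are single libraries, replicate 1 left of replicate 2. NCL stands highest on the left with 106.7 and 91.3 and lowest on the right with 11.4% and 13.9%, while NPM1 has 45.0% and 45.9% of its tally in 1 peak; FBL has only 1 and 2 peaks.

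NCL encodes nucleolin, a protein that binds RNA through RNA recognition motifs and acts in ribosomal RNA transcription and processing. Its peaks lay between positions 232319463 and 232326678 of chromosome 2 in hg19, a span of 7.22 kb, shown in the plot of peaks along the genes. By number of peaks it ranked 54 of 7252 gene IDs in replicate 1 and 85 of 7101 in replicate 2, and by number of shared peaks it ranked 14 and 17. It held 2.49 peaks per kb of span in replicate 1 and 2.22 in replicate 2. The medians over the 1254 gene IDs with 5 or more peaks in both lists were 0.27 in each. The span runs from the first to the last peak, introns included, so a short span raises this value. The tally was spread over many sites. The strongest peak held 11.4% of it in replicate 1 and 13.9% in replicate 2, against medians of 24.3% and 23.9% over those 1254 IDs, and 3.27% and 9.89% of the IDs had a lower share. NCL also had more peaks than most of these IDs, and the share was not compared at like numbers of peaks.

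All 12 shared NCL peaks of each library formed pairs, meaning that each was the other's longest overlap. The 3 with the highest summed tally lay toward the 3′ end, which on the minus strand is the low end of the coordinates. The peak at 232319735 to 232319808 had a tally of 19 in replicate 1, and its partner at 232319716 to 232319807 had 17 in replicate 2. Next to it, a peak at 232319647 to 232319723 had 19, and its partner at 232319654 to 232319715 had 14. These neighbours made up the densest stretch of NCL in both libraries. A peak at 232320723 to 232320786 had 15 in replicate 1 and 14 in replicate 2, with the same end in both and starts that differed by 1 nt. A peak at 232320265 to 232320332 had a tally of 19 in replicate 1, while replicate 2 listed a 16 nt peak at 232320318 to 232320333 with a tally of 6. This last site was thus among the strongest of the gene in 1 library and of ordinary size in the other.

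The next NCL pairs were weaker and more even along the gene. Tallies were 8 in replicate 1 and 10 in replicate 2 at 232321361 to 232321415, and 7 and 10 at 232323791 to 232323839. They were 9 and 7 at 232319463 to 232319509 and 10 and 5 at 232322353 to 232322400 (positions of replicate 1). The other 4 pairs had tallies of 4 to 11 in replicate 1 and 3 to 7 in replicate 2. Replicate 1 had the higher tally in 8 of the 12 pairs, replicate 2 in 3, and 1 was equal, while over all 9033 pairs replicate 1 was higher in 5067 and replicate 2 in 2625. The peaks that were not shared numbered 6 in replicate 1, with tallies of 3 to 8, and 4 in replicate 2, with tallies of 3 to 7. Of these, 3 in each library had a peak of the other within 100 nt. Peaks within 1500 nt of the 3′ end of the span held 89 of the 166 tally counts in replicate 1 (53.6%) and 70 of 122 in replicate 2 (57.4%). This window was not compared with other genes of the lists.

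**Figure D3:**
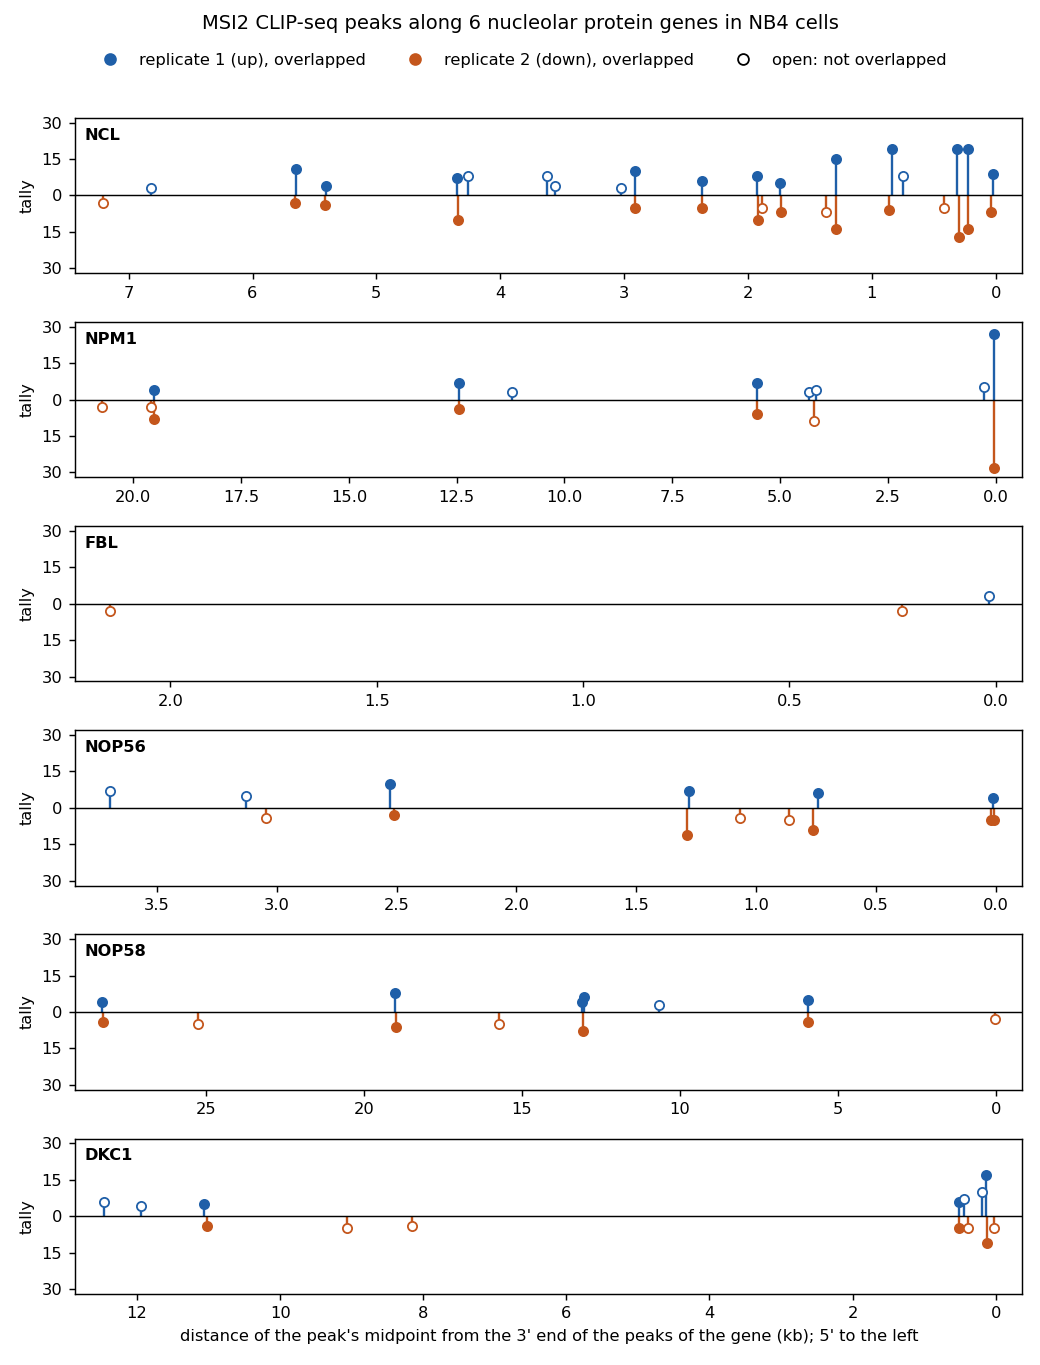
Each peak of the 6 genes as a stem at the distance of its midpoint from the 3′ end of the gene's peaks (horizontal axis, kb, 5′ to the left), with its tally as height, replicate 1 upward and replicate 2 downward. Filled points are overlapped by a peak of the other replicate and open points are not. NCL has peaks along its whole span, NPM1 has 1 tall peak at its 3′ end with tallies of 27 and 28, DKC1 has a cluster there, and FBL has open points only.

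NPM1 encodes nucleophosmin, a chaperone of histones and ribosomal proteins whose gene is often mutated in acute myeloid leukaemia. Unlike NCL, it had a single dominant site. The peak at 170837784 to 170837853 of chromosome 5 had a tally of 27 and a deposited p of 1.82e-19 in replicate 1, and its partner at 170837785 to 170837858 had 28 and 5.81e-21 in replicate 2. The short inner intervals that the authors give within each peak had the same centre in both. This site was the strongest of all peaks of the 6 genes and lay nearest to the 3′ end of the gene's peaks. It held 45.0% of the gene's tally in replicate 1 and 45.9% in replicate 2, a share higher than in 96.6% and 96.9% of the 1254 gene IDs with 5 or more peaks in both lists. By its strongest peak NPM1 ranked 213 of 7252 gene IDs in replicate 1 and 114 of 7101 in replicate 2.

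The other NPM1 sites were small. Shared peaks lay at 170832308 to 170832354, with tallies of 7 in replicate 1 and 6 in replicate 2, at 170825388 to 170825427, with 7 and 4, and at 170818313 to 170818348, with 4 and 8. Their inner intervals were centred 1, 7 and 1 nt apart, so all 4 pairs of NPM1 lay within 10 nt, against 67.8% of all pairs. This was not so for the 6 genes together, where 15 of 27 pairs did (55.6%). The counts were 7 of 12 in NCL, 2 of 3 in DKC1 and 1 of 4 in each of NOP56 and NOP58. The 4 unshared NPM1 peaks of replicate 1 had tallies of 3 to 5. Of the 3 in replicate 2, the highest had a tally of 9 at 170833606 to 170833670 and ended 3 nt short of an unshared replicate 1 peak at 170833674 to 170833708 with a tally of 4, so that the libraries had neighbouring but not overlapping peaks there. RefSeq's gene table for GRCh38.p14 lists 50 pseudogenes numbered as copies of NPM1, against 2 for NCL, 3 for NOP56, 1 for FBL and 0 for NOP58 and DKC1. The sources used here do not say how reads that match several copies were placed, and the part of such reads in the NPM1 peaks was not tested.

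FBL, NOP56 and NOP58 encode proteins of the box C/D snoRNA particle, in which fibrillarin is the methyltransferase and NOP56 and NOP58 form the scaffold. The genes of these partners were not alike in the lists. FBL had no shared peak: its replicate 1 peak lay at 40325139 to 40325172 of chromosome 19, and the replicate 2 peaks lay at 40325343 to 40325387 and 40327267 to 40327304. The nearest were 170 nt apart, and each rested on a tally of 3. This is at the limit of what the lists hold, so the absence of a shared peak does not show that FBL is unbound.

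NOP56 had 4 shared peaks in replicate 1 and 5 in replicate 2, which formed 4 pairs within a span of 3.73 kb. At 2637288 to 2637337 of chromosome 20 the tallies were 7 in replicate 1 and 11 in replicate 2, and at 2637840 to 2637868 they were 6 and 9. At 2636037 to 2636097 they were 10 and 3, and at 2638575 to 2638594 they were 4 and 5. The site that was strongest in one library was therefore not the strongest in the other. The additional shared peak of replicate 2, with a tally of 5, overlapped the same replicate 1 peak at 2638575 to 2638594. NOP56 also had many peaks for its short span, with 1.61 per kb in replicate 1 and 2.14 in replicate 2, against the medians of 0.27.

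NOP58 had 5 shared peaks in replicate 1 and 4 in replicate 2, and all its peaks together, shared or not, spanned 28.3 kb. At 203149109 to 203149173 of chromosome 2 the tallies were 8 in replicate 1 and 6 in replicate 2. At 203155093 to 203155138 they were 6 and 8, and a second replicate 1 peak, with a tally of 4, overlapped the same peak of replicate 2. At 203162184 to 203162224 they were 5 and 4, and at 203139852 to 203139884 they were 4 and 4. No NOP58 peak reached a tally of 10. The paired peaks matched less closely than those of NPM1, with inner intervals centred a median of 29 nt apart over 4 pairs, against 1 nt for NPM1, 7 nt for NCL, 13.5 nt for NOP56 and 6 nt over all 9033 pairs.

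DKC1 encodes dyskerin, the pseudouridine synthase of the box H/ACA particles and a part of telomerase, and its mutation causes dyskeratosis congenita. Its peaks fell into a 3′ cluster and scattered sites upstream. The strongest pair lay at 154005506 to 154005558 of chromosome X, with a tally of 17 and a deposited p of 3.07e-12 in replicate 1, and at 154005518 to 154005560, with 11 and 2.29e-07 in replicate 2. A second peak of replicate 1, at 154005454 to 154005505 with a tally of 10, touched the first end to end. It was the only peak of the 6 genes with a tally of 10 or more that was not shared, and 12 nt separated it from the nearest peak of replicate 2. Within 500 nt of the 3′ end of the span lay 3 peaks with 61.8% of the gene's tally in replicate 1 and 4 peaks with 66.7% in replicate 2. This window was not compared with other genes of the lists, so the cluster is not shown to be particular to DKC1. The other pairs had tallies of 6 and 5 at 154005133 to 154005164 and of 5 and 4 at 153994565 to 153994624, where the overlap was 5 nt. The remaining peaks between the upstream sites and the cluster were found in replicate 2 alone, with tallies of 5 and 4.

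**Figure D4:**
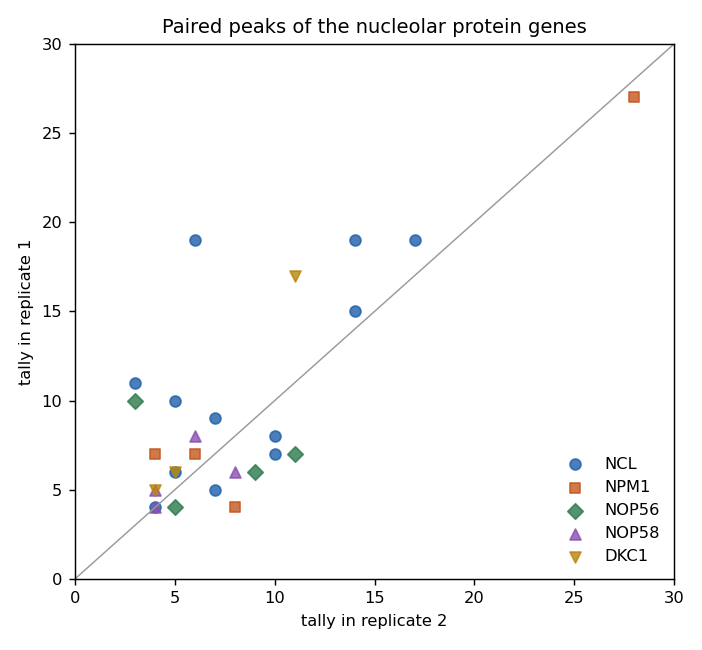
Tally in replicate 1 (vertical axis) against tally in replicate 2 (horizontal axis) for the 27 paired peaks of the nucleolar protein genes; symbols mark the gene and the line marks equal tallies. The NPM1 3′ site stands alone at 27 and 28, and NCL has 4 peaks at 15 or more in replicate 1, of which 1 has a tally of 6 in replicate 2.

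In some of the genes the strongest site was the same in both libraries. The strongest peaks overlapped in NCL, NPM1 and DKC1 and not in NOP56 and NOP58, so in 3 of the 5 genes with 5 or more peaks in both lists. Over all 1254 such gene IDs they overlapped in 52.8%, so the count of 3 in 5 is near the background. In NCL, 3 peaks of replicate 1 shared the highest tally of 19, and an overlap of any of them was counted. Across the 27 pairs the tallies had a Spearman rho of 0.47, over peaks that share libraries and genes, and over all 9033 pairs it was 0.61. Replicate 1 was higher in 16 pairs of the 6 genes, replicate 2 in 9, and 2 were equal.

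Pooled over the 6 genes, a smaller share of peaks lay toward the 3′ end than over all genes, but the genes differed among themselves. The place of a peak's midpoint was expressed along the span from the first to the last peak of the gene in either library, in genes spanning at least 1 kb, and peaks at the ends of a span were not counted. Of the peaks of the 6 genes, 8 of 40 in replicate 1 (20%) and 9 of 41 in replicate 2 (22.0%) fell within the last 10% toward the 3′ end. The rule on span ends left out the 3′-most peak of each gene in the library where that peak sets the end of the span. In NPM1 this was the strong 3′ peak in replicate 2, while its partner in replicate 1 was kept. NPM1 therefore gave 2 of 8 peaks in replicate 1 and 0 of 5 in replicate 2. In NOP58 it was a replicate 2 peak at 203168133 to 203168157 with a tally of 3. The difference from all peaks was not tested. Over all genes spanning at least 1 kb the shares were 38% and 37%. These include genes with few peaks, and the shares were not compared at like numbers of peaks per gene. Within the 3′-most 25% lay 16 of 40 (40.0%) and 18 of 41 (43.9%), against 53.3% and 52.4%. In DKC1, 4 of 6 counted peaks in replicate 1 and 3 of 6 in replicate 2 lay in the last 10%. In NOP58 none of 5 and none of 6 counted peaks did. The 3′-most peak of both genes was left out in replicate 2. By tally, with every peak counted, the 3′-most 25% held 65.0% in NPM1, 72.7% in DKC1, 56.6% in NCL, 25.6% in NOP56 and 16.7% in NOP58 in replicate 1. In replicate 2 the values were 60.7%, 66.7%, 63.1%, 52.2% and 20% in the same order of genes. The median over 1253 gene IDs with 5 or more peaks in both lists was 65.0% (interquartile range 40.3% to 83.9%) in replicate 1 and 62.5% (38.8% to 81.5%) in replicate 2. NOP58 was thus below the lower quartile in both libraries and NOP56 in replicate 1, while NCL, NPM1 and DKC1 lay within the interquartile range in both. The span is that of the peaks, includes introns and was set in part by these same peaks. No exon positions of hg19 were used, so exons, introns and untranslated regions are not told apart here.

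Several of the 6 genes host snoRNA genes. RefSeq's table for GRCh38.p14 places 14 within them: SNORD20, SNORD82 and SNORA75 in NCL, SNORD56, SNORD57, SNORD86, SNORD110 and SNORA51 in NOP56, SNORD11, SNORD11B, SNORD70 and SNORD70B in NOP58, and SNORA36A and SNORA56 in DKC1. NPM1 and FBL hold none. At 3 sites, all in genes that host snoRNAs, a peak of another gene ID lay inside a peak of these genes. At 232321190 to 232321222 in NCL, a peak with a tally of 5 in replicate 1 enclosed an 11 nt peak of another gene ID with a tally of 5, and in replicate 2 the NCL peak at 232321180 to 232321217, with a tally of 7, enclosed a 21 nt peak of the same other ID with a tally of 7. In NOP56 the peak at 2637288 to 2637337, with a tally of 7 in replicate 1, enclosed 1 interval listed under both of 2 other IDs with a tally of 5, and the partner in replicate 2, with a tally of 11, enclosed an interval listed under the same IDs with a tally of 9. In NOP58 a replicate 2 peak at 203142853 to 203142909, with a tally of 5, enclosed a 15 nt peak of another ID, also with a tally of 5.

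Those 4 other IDs had no other peak in the same list, so each was listed there only at the site inside its host. In all, 2 of 46 peaks of the 6 genes in replicate 1 and 3 of 47 in replicate 2 overlapped a peak of another ID, against 7.74% and 8.56% of all peaks. The files do not pair IDs with names and the RefSeq table holds no Ensembl IDs, so the nested IDs are not named here, and whether they are the snoRNAs above was not tested. Fragments of the host transcript and of a nested RNA cannot be told apart at these sites. The strongest sites of NCL, NPM1 and DKC1 overlapped no peak of another ID.

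Other gene IDs with values like those of NCL and NPM1 were looked for by the Euclidean distance over log2(1 + x) of 5 values, namely peaks and summed tally in each replicate and shared peaks in replicate 1. Nearest to NCL was an ID on the plus strand of chromosome 5 (distance 0.20), with 18 peaks in each replicate, 11 of them shared, and summed tallies of 165 in replicate 1 and 123 in replicate 2. Next were an ID on the minus strand of chromosome 2 (distance 0.24), with 16 peaks in each and tallies of 152 and 120, and an ID on the plus strand of chromosome 10 (distance 0.27), with 17 and 16 peaks and tallies of 167 and 129. Nearest to NPM1 were an ID on the minus strand of chromosome 5 (distance 0.23), an ID on the minus strand of chromosome X (distance 0.29) and an ID on the plus strand of chromosome 8 (distance 0.30). All had 8 peaks in replicate 1, with summed tallies of 51 to 64 there and 53 to 57 in replicate 2. The likeness is over 2 libraries only and says nothing of the place of the peaks.

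Since no control library was analysed, MSI2 binding and repeatable background cannot be told apart at these sites. Sequences of the peaks are not shown, since no hg19 genome was used here.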

How the data were processed

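The deposited files are 1 peak list per library. The tools named in the submitters' processing notes are STAR 2.3.0e, Bowtie 1.0.0 and cutadapt, and the build is hg19. The peak caller is not stated in any source used here. The names of the lists record trimming and removal of duplicate reads. Every peak has a deposited p-value from the authors, always under 0.05, and whether it was adjusted is not stated. Starts were converted to count from 1.

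Peaks were taken by gene ID, and gene symbols for the IDs come from the definition of the gene set. Overlaps, 95% Wilson intervals for shares and exact binomial intervals for tally ratios were computed with SciPy 1.17.1, pandas 2.3.3 and NumPy 2.4.6 in Python 3.11.15, and figures with matplotlib 3.10.9. The overlap search was tested on simulated data. No test across genes was run, since the design has 1 group. Named were all 6 genes, their pairs, peaks with a tally of 10 or more, and 3 like IDs each for NCL and NPM1. In NCL this was limited to the 8 pairs with the highest summed tally. That limit left out a replicate 1 peak with a tally of 11. Unshared peaks below a tally of 10 that are given with positions, the tally classes, the nested IDs, the strongest-site counts and the windows at the 3′ end were chosen after their values were seen. The genes and lists were chosen with earlier results of these data known. Alternatives covered the overlap, the strength of the peaks, merging, scaling and position.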

Additional observations from a re-analysis of the deposited data

How the results depend on the processing

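Of 80 recomputed values, 68 stayed within the margin set for them. With an overlap of 50% of both peaks, the share of the 6 genes' peaks that were shared was 43.5% in replicate 1 (26.8% of all peaks) and 42.6% in replicate 2 (27.5%). Extension by 100 nt gave 82.6% (48.5% of all peaks) and 83% (49.9%), and then FBL also counted, since its nearest peaks lie 170 nt apart. With the strongest 10% by p, 3 genes (NCL, NPM1 and DKC1) kept a shared peak, and the share was 71.4% of 7 peaks in replicate 1 (55.1% of all such peaks) and 41.7% of 12 in replicate 2 (57.1%). These shorter or stricter lists hold fewer peaks by construction. With a tally of 5 or more in both lists the shares were 56.2% (43.7% of all peaks) and 58.1% (56.2%), so the gap to all peaks nearly closed in replicate 2. The 93 peaks of both libraries became 46 to 47 when either replicate was left out. The 3′-most 25% of the span, a wider window, held 42% of the peaks. The stronger 50% by p left FBL with 0 peaks in both libraries and NPM1 with 5 in replicate 1. The wider list of 117 nucleolar genes and the search for motifs were not run, for want of gene names and of an hg19 genome. No paired analysis was possible because there is 1 group. Total reads are unknown, which limits what a tally of 3 shows.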

Other observations

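In NCL, 4 of the 12 paired peaks began or ended on exactly the same base in both libraries, 1 at the low end of the coordinates and 3 at the high end, against 13.4% of all 9033 pairs. None of the 15 pairs of the other genes did. The 6 genes together thus had 4 of 27 (14.8%), near the share of all pairs. The 4 NCL pairs include a peak at 232321829 to 232321835 in replicate 1 and 232321828 to 232321835 in replicate 2, only 7 and 8 nt wide, with tallies of 6 and 5. This count was made after the values were seen and was not tested, and exon positions were not used.

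Peaks of a gene carry running numbers, and 1 number was skipped in 1 library for NCL and NOP56 and in both libraries for NOP58 and DKC1. What the skipped numbers stand for was not analysed here.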
